A study of Mus musculus with 15 samples.

Results

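The immunoproteasome and the MHC class I pathway were followed through 10 genes of antigen processing: Psmb8, Psmb9, Psmb10, Psme1, Psme2, Tap1, Tap2, Tapbp, B2m and Nlrc5. They were taken by their mouse symbols from a list and found in the data through their Ensembl identifiers. All 10 were among the 46603 genes counted, and all 10 were among the 15997 genes that passed a filter on low counts.

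Proteasomes cut cytosolic proteins into peptides. Interferon makes cells exchange the standard catalytic subunits for the inducible subunits of the immunoproteasome, and the peptides it makes are carried by the TAP transporter into the endoplasmic reticulum and loaded onto MHC class I molecules. These molecules, each a heavy chain with B2m as light chain, present the peptides to CD8 T cells, and fibroblasts express the pathway at a low level that interferon raises.

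Mouse embryonic fibroblasts (MEFs) of wild-type BALB/c embryos, 10.5 days old, were profiled by RNA-Seq in 5 conditions with 3 samples each, numbered 1, 3 and 4, to follow their differentiation into adipocytes. The study's introduction names another mouse strain and an older embryo age for MEFs in general. MEFD0 cells were taken at day 0. MEFD3min and MEFD5min cells were left untreated in DMEM with 10% FBS until day 3 or day 5. MEFD3plu cells had for 3 days the same medium with 10 µM rosiglitazone, a Pparg agonist, 1 µM of the glucocorticoid dexamethasone, 10 µg/mL insulin and 0.5 mM of IBMX (3-isobutyl-1-methylxanthine), a phosphodiesterase inhibitor, and MEFD5plu cells had this treatment followed by growth medium for 2 days. The labels do not say whether samples of a condition came from separate embryos or cultures, and the methods speak of at least 3 independent experiments without tying them to these samples, so p-values measure the spread between these samples.

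The reads counted ranged from 24030558, in replicate 3 of MEFD5min, to 37281126, and the median of the 3 samples was 33878281 in MEFD0, 31897563 in MEFD3min, 31812495 in MEFD3plu, 34380215 in MEFD5min, while MEFD5plu had 35420674. Values below are CPM, counts relative to library sizes scaled by TMM, given for replicates 1, 3 and 4 in that order. All 9 fibroblast markers listed for the check of the cell type passed the filter, and their summed level was 8929 ± 587 CPM in MEFD0 (mean ± SD, n = 3), 24379.6 ± 3684 and 11654 ± 611 in MEFD3min and MEFD3plu, and 13006 ± 884 and 12293 ± 669 in MEFD5min and MEFD5plu. Vim was the most abundant of them in MEFD0, MEFD5min and MEFD5plu, and Col3a1 in MEFD3min and MEFD3plu. Their sum joined opposite changes, since in MEFD3min/MEFD0 6 of the 9 were higher and 2 lower (31.4% and 28.6% of all genes, edgeR). Mean Vim was 6542 CPM in MEFD0 and 2814 in MEFD3min, while mean Col3a1 was 215 and 8681. In MEFD3plu/MEFD3min, 7 of the 9 were lower and 1 higher (28.0% and 28.0% of all genes), with a median of -1.60 (log2, edgeR). In MEFD5plu/MEFD5min, 2 were lower and 2 higher (24.2% and 26.3%), with a median of -0.17 (log2, edgeR). Of 8 adipocyte markers 7 passed, with a summed level of 41.6 ± 5.61 CPM in MEFD3min against 10529 ± 1306 in MEFD3plu, and 31.4 ± 2.72 in MEFD5min against 12469 ± 1109.8 in MEFD5plu. Of 10 markers of leukocytes and macrophages, cells with a high class I level, 4 passed the filter. Adgre1, Itgam, Tyrobp and Aif1 had at most 3 counts in each of the 15 samples, and Ptprc, the common leukocyte antigen, had at most 6. Itgam counts are uncertain, since Gm49368 overlaps 68.7% of its exon bases on the same strand. The summed level of the 10 was 12.5, 10.4 and 12.6 CPM in MEFD0, 10.4, 10.2 and 11.7 in MEFD3min, 7.81, 6.30 and 6.09 in MEFD3plu, 13.3, 15.2 and 14.1 in MEFD5min and 9.98, 9.86 and 10.8 in MEFD5plu. The most abundant was Cd14 in 4 conditions and Cd68 in MEFD3plu. This sum was lower in MEFD3plu than in MEFD3min and lower in MEFD5plu than in MEFD5min. Lyz2, which passed the filter, had another course, with mean CPM of 0.368 in MEFD0, 2.46 in MEFD3min and 1.29 in MEFD3plu. Its mean was 2.30 in MEFD5min and highest in MEFD5plu, at 2.77, where the samples of these conditions overlapped. Csf1r, Cd68 and Cd14, the others that passed, had lower means in MEFD5plu than in MEFD5min. The part of other cells in the results was not tested.

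Replicate 3 of MEFD5min stood apart in the 10 genes. It had the lowest CPM of its condition for 10 of the 10 genes, while it was the lowest of its condition for 37.9% of all genes tested. Of the 9 fibroblast markers, 5 were also lowest in this sample, 3 in replicate 4 and 1 (Vim) in replicate 1. In the other 4 conditions no sample was the lowest for more than 5 of the 10 genes. The day 5 effects of the 10 genes are therefore also given without this sample, as is the range of their called changes from MEFD0 or MEFD3min to MEFD5min.

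At day 3 the 10 genes were lower in treated than in untreated cells, and at day 5 all of them but Nlrc5 were higher. Below, a rise or fall at day 3 or at day 5 is treated against untreated cells of that day, not a change over time. In MEFD3plu/MEFD3min, 10 of 10 genes were lower at an adjusted p under 0.05, as were 28.0% of all genes tested (edgeR's quasi-likelihood test, Benjamini-Hochberg adjustment). In MEFD5plu/MEFD5min, 9 of 10 were higher, as were 26.3% of all genes, and Nlrc5 was lower, as were 24.2%. The treatment by day interaction, the day 3 effect minus the day 5 effect, was below 0 for 10 of 10, against 25.8% of all genes, and above 0 for none, against 22.6% (same test). The median log2 fold change over the 10 genes was -1.99 at day 3 and 1.29 at day 5, beside -0.00057 and 0.01 over all 15997 genes. In all 10 genes the CPM of the 3 MEFD3plu samples lay below those of the 3 MEFD3min samples, which held for 28.2% of all genes. The 3 MEFD5plu samples lay above the 3 MEFD5min samples in 9 of 10, and this held for 32.5% of all genes. In bulk samples such as these, fewer cells that express a gene and less RNA per cell cannot be told apart. Scaling by total counts alone moved the split of all calls at day 5 from 4210 higher and 3870 lower to 3072 higher and 5231 lower, and each of the 10 genes kept its direction and its call in both comparisons.

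**Figure D1:**
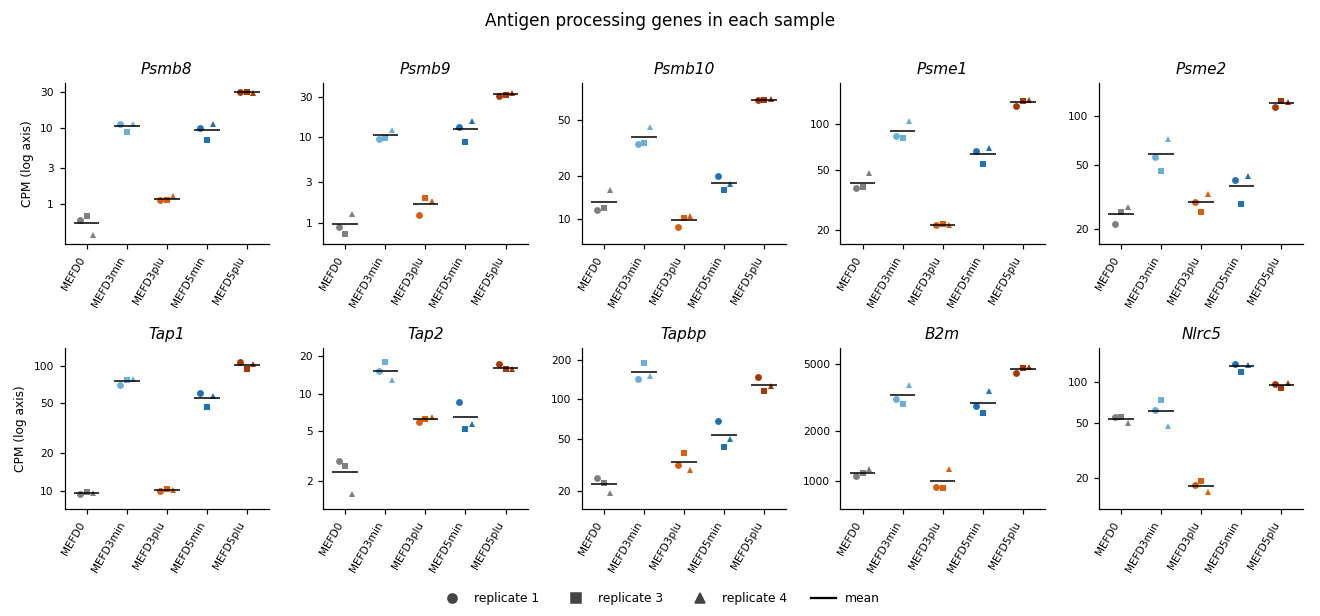
CPM of the 10 genes in each of the 15 samples (log axis), with the 5 conditions on the x axis, 1 symbol per replicate and a line at the mean of each condition. In each panel the 3 MEFD3plu samples lie below the 3 MEFD3min samples, and in each panel but that of Nlrc5 the MEFD5plu samples lie above the MEFD5min samples.

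Psmb8 (LMP7, chr17:34197721-34201454, GRCm38) encodes the inducible subunit that takes the place of Psmb5 at the chymotrypsin-like site. It had 0.617, 0.689 and 0.391 CPM in MEFD0, 11.5, 9.10 and 11.6 in MEFD3min, 1.13, 1.13 and 1.30 in MEFD3plu, 10.2, 7.13 and 11.6 in MEFD5min and 30.6, 30.1 and 29.6 in MEFD5plu. The MEFD0 and MEFD3plu samples were all under 2 CPM, the untreated samples of days 3 and 5 overlapped, and the 3 MEFD5plu samples lay above all others with an SD of 0.492 CPM. Its log2 fold change was -3.17 (standard error 0.194, adjusted p = 3.32e-10) in MEFD3plu/MEFD3min and 1.63 (standard error 0.154, adjusted p = 2.01e-07) in MEFD5plu/MEFD5min (edgeR). Without replicate 3 of MEFD5min the day 5 value was 1.46. The gene Gm20496 lies antisense to 14.7% of the exon bases of Psmb8, and its reads could not be told apart if strand was not used in counting.

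Psmb9 (LMP2, chr17:34181987-34187764) replaces Psmb6, the caspase-like subunit. It had 0.892, 0.742 and 1.26 CPM in MEFD0, 9.68, 9.91 and 12.1 in MEFD3min, 1.23, 1.94 and 1.80 in MEFD3plu, 13.3, 8.84 and 15.7 in MEFD5min and 30.9, 31.7 and 33.4 in MEFD5plu. MEFD0 and MEFD3plu overlapped at the low end, MEFD3min and MEFD5min overlapped in the middle, and MEFD5plu was the highest with no overlap. In treated against untreated cells Psmb9 was lower by 2.66 at day 3 (log2, standard error 0.216, adjusted p = 1.35e-08, edgeR). At day 5 it was higher by 1.34 (standard error 0.177, adjusted p = 8.85e-06, edgeR), or by 1.14 without replicate 3 of MEFD5min.

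Psmb10 (MECL-1, chr8:105935735-105938444) replaces Psmb7, the trypsin-like subunit, and had the highest level per length of the 3 inducible catalytic genes. It had 11.5, 11.9 and 15.9 CPM in MEFD0, 33.7, 34.4 and 44.5 in MEFD3min, 8.80, 10.2 and 10.5 in MEFD3plu, 19.9, 15.9 and 17.6 in MEFD5min and 69.0, 69.1 and 69.7 in MEFD5plu. No 2 conditions overlapped, and the order from low to high was MEFD3plu, MEFD0, MEFD5min, MEFD3min and MEFD5plu. The log2 fold change was -1.93 (standard error 0.137, adjusted p = 2.36e-09) at day 3 and 1.96 (standard error 0.133, adjusted p = 3.41e-09) at day 5 (edgeR), a pair of effects of nearly the same size with opposite sign, and 1.88 at day 5 without replicate 3 of MEFD5min. No other gene shares exon bases or 50-base stretches with Psmb10, as was also the case for B2m.

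The 3 standard subunits that these genes replace moved less. Psmb5 had 84.6, 92.4 and 109 CPM in MEFD0, 66.5, 60.4 and 82.3 in MEFD3min, 94.1, 92.2 and 107 in MEFD3plu, 78.6, 72.7 and 85.2 in MEFD5min and 98.9, 109 and 101 in MEFD5plu. Its log2 fold change was 0.49 (standard error 0.115, adjusted p = 0.00156) at day 3 and 0.39 (standard error 0.114, adjusted p = 0.00967) at day 5, and the day 5 call was lost with total counts alone (0.22, adjusted p = 0.0707, edgeR). For Psmb6 the values were 0.02 and 0.28 (adjusted p = 0.903 and 0.0607, edgeR), although Psmb6 passed at day 5 with only the groups compared, with no filter and with the replicate block (adjusted p = 0.00767, 0.0221 and 0.0192). They were for Psmb7 0.20 and 0.50 (adjusted p = 0.229 and 0.00653, edgeR). Without replicate 4 of MEFD3min, Psmb7 passed at day 3 as well, at 0.41 (adjusted p = 0.00618, edgeR). The interaction of Psmb5, Psmb6 and Psmb7 was 0.10, -0.26 and -0.30 (adjusted p = 0.633, 0.219 and 0.23), against -4.80, -4.00 and -3.88 for Psmb8, Psmb9 and Psmb10 (adjusted p = 1.54e-10, 6.53e-09 and 9.21e-11, edgeR). Without replicate 3 of MEFD3min the interaction passed for Psmb6 and Psmb7, at -0.40 and -0.45 (adjusted p = 0.027 and 0.0315, edgeR). Nek6 lies antisense to 11.8% of the exon bases of Psmb7. Psmb5 counts are uncertain, since 54.1% of its 50-base stretches occur in other genes too, mainly Gm3375.

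Set side by side per kilobase of exon, the inducible subunit was the smaller part of the Psmb8 and Psmb9 pairs in every sample. Psmb8 made up 4.40, 3.85 and 3.61% of the Psmb8 and Psmb5 pair in MEFD3min, 0.317, 0.324 and 0.321% in MEFD3plu, 3.35, 2.54 and 3.49% in MEFD5min and 7.61, 6.82 and 7.23% in MEFD5plu, from 0.162% ± 0.0580 in MEFD0 (mean ± SD, n = 3). Psmb9 made up 4.37, 5.45 and 4.49% of its pair with Psmb6 in MEFD3min, 0.601, 0.955 and 0.727% in MEFD3plu, 5.25, 3.89 and 5.89% in MEFD5min and 9.76, 9.43 and 10.9% in MEFD5plu, from 0.376% ± 0.0783 in MEFD0. In both pairs the lowest MEFD5plu share lay above all shares of the other conditions. Psmb10 reached a far larger part of its pair with Psmb7, at 48.0, 53.5 and 47.7% in MEFD3min and 53.1, 49.6 and 51.6% in MEFD5plu, which overlapped, against 17.1, 20.9 and 17.1% in MEFD3plu and 29.8, 26.8 and 26.7% in MEFD5min. These are shares of RNA, with no test, and they depend on the length used. With the length of the principal transcript, chosen after seeing the data, the Psmb8 share in MEFD5plu was 13.9% ± 0.707 and the Psmb10 share 31.9% ± 1.55, in place of 7.22% ± 0.395 and 51.4% ± 1.79.

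**Figure D2:**
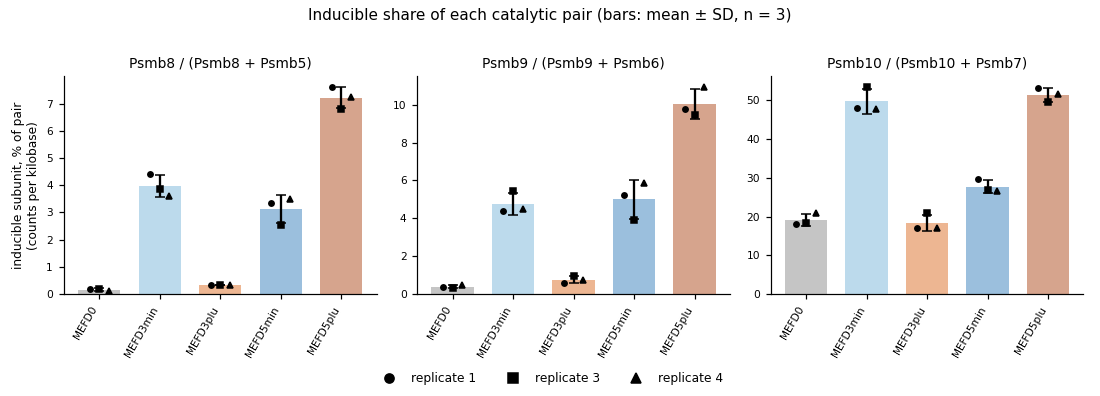
Share of the inducible subunit in each catalytic pair, in percent of counts per kilobase, by condition; bars are means with SDs over 3 samples and symbols are the replicates. MEFD0 and MEFD3plu are the lowest conditions in each panel, and the Psmb10 axis reaches far higher values than those of Psmb8 and Psmb9.

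Psme1 and Psme2 encode the alpha and beta subunits of PA28, a ring that caps the proteasome and opens its gate. Psme1 (chr14:55578123-55581529) had 37.6, 38.2 and 47.5 CPM in MEFD0, 83.5, 80.4 and 105 in MEFD3min, 21.6, 21.9 and 21.5 in MEFD3plu, 66.4, 54.4 and 69.2 in MEFD5min and 131, 141 and 143 in MEFD5plu. No conditions overlapped, and MEFD3plu, with 21.6 ± 0.213 CPM (mean ± SD, n = 3), was the lowest and the tightest. Its log2 fold change was -2.05 (standard error 0.120, adjusted p = 1.92e-10) at day 3 and 1.13 (standard error 0.115, adjusted p = 4.86e-07) at day 5 (edgeR), the latter 1.03 with replicate 3 of MEFD5min left out.

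Psme2 (chr14:55587441-55591113) had 21.4, 25.5 and 27.2 CPM in MEFD0, 56.0, 45.5 and 72.5 in MEFD3min, 29.4, 25.4 and 33.1 in MEFD3plu, 40.4, 28.5 and 42.7 in MEFD5min and 114, 124 and 123 in MEFD5plu. Here MEFD3plu was not below MEFD0, with which it overlapped, and the MEFD3plu and MEFD5min samples overlapped too. Psme2 had the smallest change of the 10 genes at day 3, -0.98 (standard error 0.163, adjusted p = 6.42e-05), and rose by 1.69 (standard error 0.164, adjusted p = 2.8e-07) at day 5 (edgeR), or by 1.53 without replicate 3 of MEFD5min. It shares 28.3% of its 50-base stretches with the copy Psme2b, so reads may have been split between them. Psme3, the subunit of the related PA28 gamma activator of nuclear proteasomes, went the other way at day 3, with 57.3, 57.2 and 63.7 CPM in MEFD3min and 134, 138 and 156 in MEFD3plu, and rose by 1.26 (standard error 0.0784, adjusted p = 3.99e-10) in log2 (edgeR). At day 5 its value was -0.10 (adjusted p = 0.312, edgeR), and -0.26 with total counts alone (adjusted p = 0.00451).

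Tap1 (chr17:34187553-34197225) encodes a chain of the TAP transporter. It had 9.50, 9.81 and 9.55 CPM in MEFD0, 70.3, 76.5 and 77.6 in MEFD3min, 9.99, 10.3 and 10.2 in MEFD3plu, 60.5, 46.8 and 56.9 in MEFD5min and 107, 93.2 and 103 in MEFD5plu. The conditions did not overlap, although MEFD0 and MEFD3plu lay close together, and the spread within each of these was small, at 9.62 ± 0.166 and 10.2 ± 0.161 CPM (mean ± SD, n = 3). The log2 fold change of Tap1 was -2.88 (standard error 0.0986, adjusted p = 2.39e-13) at day 3 and 0.88 (standard error 0.0895, adjusted p = 4.77e-07) at day 5 (edgeR), or 0.78 at day 5 without replicate 3 of MEFD5min.

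Tap2 (chr17:34203527-34216321), the partner chain of Tap1, had 2.92, 2.62 and 1.59 CPM in MEFD0, 15.01, 17.8 and 12.8 in MEFD3min, 5.97, 6.30 and 6.51 in MEFD3plu, 8.55, 5.22 and 5.76 in MEFD5min and 17.2, 15.6 and 15.6 in MEFD5plu. MEFD3plu was above all MEFD0 samples and overlapped with MEFD5min, and MEFD3min overlapped with MEFD5plu. The log2 fold change was -1.28 (standard error 0.189, adjusted p = 1.89e-05) at day 3 and 1.30 (standard error 0.189, adjusted p = 2.35e-05) at day 5 (edgeR), where it was 1.17 without replicate 3 of MEFD5min. Antisense genes cover 18.5% of its exon bases. Between day 0 and day 3 in treated cells, Tap2 rose by 1.41 (standard error 0.213, adjusted p = 1.8e-05) in MEFD3plu/MEFD0, and Tap1 had 0.08 (adjusted p = 0.501, edgeR). Whether the 2 genes differed was not tested.

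Tapbp (chr17:33915899-33929292) encodes tapasin, which holds class I molecules at the transporter while peptides are loaded. It had 25.1, 22.7 and 19.2 CPM in MEFD0, 144, 191 and 151 in MEFD3min, 31.3, 38.9 and 29.0 in MEFD3plu, 68.6, 43.4 and 49.3 in MEFD5min and 147, 116 and 126 in MEFD5plu. Tapbp was the only member with its highest mean in MEFD3min, where the samples overlapped with those of MEFD5plu. The log2 fold change was -2.29 (standard error 0.169, adjusted p = 3.73e-09) at day 3 and 1.27 (standard error 0.163, adjusted p = 6.5e-06) at day 5 (edgeR), and the day 5 value was 1.14 without replicate 3 of MEFD5min. The gene Gm19412 lies antisense to 24.9% of its exon bases.

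B2m (chr2:122147686-122153083), the light chain, had 1081, 1121 and 1179.7 CPM in MEFD0, 3120.4, 2882 and 3773 in MEFD3min, 928, 908 and 1188 in MEFD3plu, 2835, 2573 and 3453 in MEFD5min and 4434, 4778 and 4829.7 in MEFD5plu. MEFD0 and MEFD3plu overlapped near 1000 CPM, MEFD3min and MEFD5min overlapped near 3000, and the 3 MEFD5plu samples were above all others. Its log2 fold change was -1.69 (standard error 0.134, adjusted p = 9.53e-09) at day 3 and 0.66 (standard error 0.131, adjusted p = 0.000458) at day 5 (edgeR), the latter 0.57 without replicate 3 of MEFD5min. Per kilobase of exon, B2m had 5442 CPM in MEFD5plu, and the next in order were Psme2 with 68.1, Psme1 with 62.6, Psmb10 with 40.6 and Tapbp with 35.8 CPM per kilobase. Lower levels per kilobase were found for Tap1 (18.4), Nlrc5 (11.2), Psmb8 (8.91), Psmb9 (8.75) and Tap2 (4.27). This order depends on the length used, since the principal transcripts of Psmb8 and Psmb9 have 1628 and 1352 bases against 3381 and 3660 exon bases in all.

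Nlrc5 (chr8:94434356-94527272), a transactivator of class I genes, had another pattern. It had 55.2, 55.5 and 50.1 CPM in MEFD0, 62.4, 73.3 and 48.0 in MEFD3min, 17.9, 19.2 and 15.9 in MEFD3plu, 135, 118 and 133 in MEFD5min and 96.7, 90.4 and 97.5 in MEFD5plu. MEFD5min was its highest condition and lay above MEFD5plu without overlap, while MEFD0 and MEFD3min overlapped. The log2 fold change was -1.80 (standard error 0.125, adjusted p = 1.84e-09) at day 3 and -0.44 (standard error 0.118, adjusted p = 0.00503) at day 5 (edgeR), so Nlrc5 was lower in treated cells on both days. Without replicate 3 of MEFD5min the day 5 value was -0.50. The fall was larger at day 3, with an interaction of -1.36 (standard error 0.170, adjusted p = 5.9e-06, edgeR).

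**Figure D3:**
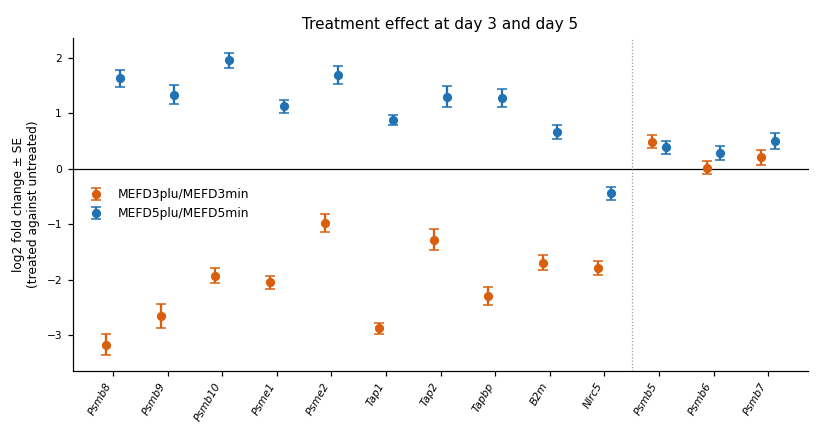
Log2 fold change between treated and untreated cells, with its standard error, at day 3 and day 5 for the 10 genes and, right of the dotted line, the 3 standard catalytic subunits. The day 3 values of the 10 genes run from -3.17 (Psmb8) to -0.98 (Psme2), and their day 5 values are above 0 apart from -0.44 for Nlrc5.

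The comparisons with day 0 and between days share samples with those above, and show where each level started. Most of the genes were already higher in untreated cells at day 3. In MEFD3min/MEFD0, 9 of 10 genes were higher, beside 31.4% of all genes, and none lower, beside 28.6%, from 1.12 for Psme1 to 4.24 for Psmb8 (log2, edgeR). Nlrc5, with 0.19 (adjusted p = 0.173), passed only without replicate 4 of MEFD3min, at 0.34 (adjusted p = 0.00543, edgeR). Without replicate 3 of MEFD3min it had 0.042 (adjusted p = 0.764, edgeR).

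Treated cells at day 3 differed from day 0 in both directions. In MEFD3plu/MEFD0, Psmb8, Psmb9, Tap2 and Tapbp were higher, 4 of 10 beside 33.9% of all genes, with log2 fold changes of 1.07, 0.79, 1.41 and 0.57. Psmb10, Psme1 and Nlrc5 were lower, 3 of 10 beside 29.7%, with -0.41, -0.93 and -1.60. Both shares are near those of all genes. The calls of Psmb9 and Psmb10 were each lost when some single samples were left out, with values down to 0.61 for Psmb9 without replicate 3 of MEFD0 (adjusted p = 0.0902) and -0.25 for Psmb10 without replicate 4 of MEFD0 (adjusted p = 0.128, edgeR).

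By day 5 all 10 genes were above day 0 in both untreated and treated cells. In MEFD5min/MEFD0, 10 of 10 were higher, beside 24.5% of all genes, from 0.45 for Psmb10 to 4.09 for Psmb8. Without replicate 3 of MEFD5min all 10 were still higher than in MEFD0, from 0.52 for Psmb10 to 4.26 for Psmb8. In MEFD5plu/MEFD0, 10 of 10 were higher, beside 35.2%, from 0.82 for Nlrc5 to 5.73 for Psmb8 (log2, edgeR). The Psmb10 call in MEFD5min/MEFD0 was lost without replicate 1 or 3 of MEFD0 or replicate 1 of MEFD5min, with 0.36, 0.38 and 0.36 (adjusted p = 0.0631, 0.0591 and 0.0658). The Psme2 call, at 0.59, was lost without replicate 4 of MEFD5min, at 0.46 (adjusted p = 0.0599, edgeR).

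From day 3 to day 5 the 10 genes rose in treated cells, while in untreated cells most were lower or did not pass. In MEFD5plu/MEFD3plu, 10 of 10 genes were higher, beside 33.8% of all genes, and none lower, beside 29.2%, from 1.36 for Tap2 to 4.66 for Psmb8. In MEFD5min/MEFD3min, 6 of 10 were lower, beside 21.5% of all genes, namely Tap1 (-0.45), Psme1 (-0.50), Psme2 (-0.64), Psmb10 (-1.07), Tap2 (-1.22) and Tapbp (-1.59). Without replicate 3 of MEFD5min the same 6 were lower, from -0.35 for Tap1 to -1.46 for Tapbp. Nlrc5 was higher, with 1.07 (standard error 0.119, adjusted p = 1.58e-06), 1 of 10 beside 21.3%, and 1.13 without that sample (edgeR). Psmb8, Psmb9 and B2m did not pass, at -0.14, 0.26 and -0.14 (adjusted p = 0.485, 0.263 and 0.406, edgeR). Psmb9 passed without replicate 3 of MEFD5min, at 0.45 (adjusted p = 0.0335), and had 0.074 without replicate 4 of MEFD5min (adjusted p = 0.792, edgeR).

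Over the 15 samples, which fall into 5 conditions and are not independent points of a trend, each gene was set against the mean profile of the other 9 (log2 CPM, centred and scaled). Pearson's r was 0.982 for Tap1, 0.979 for B2m and 0.970 for Psmb8, and lowest for Tap2 (0.801) and Nlrc5 (0.618). The closest pair was Psmb8 with Psmb9, at 0.985, and the least alike were Tap2 and Nlrc5, at 0.252. Of 11453 genes whose log2 CPM averaged 1 or more, the 8 outside all lists whose levels were most like the mean profile of the 10 were Parp9 (r = 0.997), Trim30a (0.996), Lgals8 (0.995), Trim12c (0.995), Igtp (0.995), Slfn8 (0.993), Parp12 (0.992) and Tor3a (0.991). Parp9, the closest of them, had 6.997, 7.29 and 7.15 CPM in MEFD0, 122, 109 and 140.3 in MEFD3min, 8.46, 8.71 and 7.10 in MEFD3plu, 79.3, 43.1 and 80.3 in MEFD5min and 239.6, 262 and 262 in MEFD5plu. It was picked for this likeness, so its levels are a description with no test.

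Of 16 listed heavy chain genes, the partners of B2m, 11 passed the filter. At day 3, 10 of the 11 were lower and none higher in treated cells, with a median of -2.65, and at day 5, 7 were higher and 2 lower, with a median of 0.52 (log2, edgeR). Over all genes 28.0% were lower and 28.0% higher at day 3, and 24.2% lower and 26.3% higher at day 5, with medians of -0.00057 and 0.01. With DESeq2's size factors or total counts alone, 6 heavy chain genes were higher at day 5, beside 3836 or 3072 of all 15997 genes. H2-K1, a classical heavy chain, had 40.8, 50.9 and 45.7 CPM in MEFD0, 496, 529 and 557 in MEFD3min, 199, 207 and 234 in MEFD3plu, 423, 355 and 461 in MEFD5min and 729, 662 and 680.3 in MEFD5plu. Its log2 fold change was -1.30 (standard error 0.106, adjusted p = 1.38e-08) at day 3 and 0.74 (standard error 0.105, adjusted p = 1.82e-05) at day 5 (edgeR), the directions of B2m. H2-D1 was lower in treated than in untreated cells by 1.14 at day 3 (adjusted p = 2.68e-08, edgeR). At day 5 it had 0.056 (adjusted p = 0.66, edgeR), where its samples overlapped. Its mean was 216 CPM in MEFD0, 1243 in MEFD3min and 562 in MEFD3plu, so treated cells at day 3 lay above day 0. H2-T23 (Qa-1) rose by 2.56 and H2-Q7 (Qa-2) fell by 0.69 at day 5 (adjusted p = 3.27e-10 and 0.000865, edgeR), after values of -1.93 and -2.85 at day 3. These genes are polymorphic and alike in sequence, and BALB/c has other alleles than the C57BL/6J reference, so their counts are uncertain.

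The 4 other listed partners of B2m, Cd1d1, Mr1, Fcgrt and Hfe, were all higher at day 5 (26.3% of all genes, edgeR). With DESeq2's size factors or total counts alone 3 of the 4 were higher, beside 3836 or 3072 of all 15997 genes. Mr1 and Hfe were lower at day 3 (28.0%, edgeR). Cd1d1, which presents lipids, rose by 2.34 (standard error 0.188, adjusted p = 2.98e-08) and Fcgrt, the neonatal Fc receptor, by 1.40 (standard error 0.130, adjusted p = 1.58e-07) at day 5, against -0.11 and -0.15 at day 3 (adjusted p = 0.652 and 0.323, edgeR). Among the 6 genes of loading and trimming in the endoplasmic reticulum, 5 were lower at day 3 (of all genes 28.0%), and 2 were higher and 1 lower at day 5, shares near the 26.3% and 24.2% of all genes. The 2 were Erap1, which trims peptides, and Tapbpl, a relative of Tapbp, with 1.54 (standard error 0.103, adjusted p = 2.85e-09) and 1.53 (standard error 0.132, adjusted p = 7.05e-08) at day 5 after -0.74 and -0.92 at day 3 (edgeR). Cast lies antisense to 11.5% of the exon bases of Erap1. The general chaperones Calr, Canx and Pdia3 did not pass at day 5, at 0.18, 0.068 and 0.059 (adjusted p = 0.0667, 0.528 and 0.608, edgeR). At day 3 their mean levels were lower in treated cells, at 1384, 1106 and 1352 CPM in MEFD3min and 1230, 719 and 719 in MEFD3plu.

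Of 13 listed regulators of class I genes, 12 passed the filter, and at day 3, 5 of them were lower and 3 higher, at day 5 3 lower and 6 higher (edgeR). Over all genes these shares were 28.0% and 28.0%, and 24.2% and 26.3%. With total counts alone 4 regulators were lower and 5 higher at day 5, beside 5231 and 3072 of all 15997 genes. Irf9 and Stat2, which carry the type I interferon signal to the nucleus, and Irf1 were lower at day 3 and higher at day 5. Irf9 had 14.9, 15.2 and 14.5 CPM in MEFD0, 177, 168 and 193 in MEFD3min, 11.3, 13.0 and 11.4 in MEFD3plu, 114, 76.5 and 110.1 in MEFD5min and 200.3, 197 and 192 in MEFD5plu. Its MEFD3plu samples were the lowest, and its MEFD5plu samples overlapped with those of MEFD3min. The day 3 and day 5 log2 fold changes were -3.91 and 0.97 for Irf9, -2.53 and 1.44 for Stat2, and -0.99 and 1.11 for Irf1, and no adjusted p was above 1.87e-05 (edgeR). Rfx5, Rfxank and Rfxap, which bind class I promoters with Nlrc5, had 0.54, 0.42 and -0.0066 at day 5 (adjusted p = 0.000615, 0.00856 and 0.969, edgeR). Antisense genes cover 26.8% of the exon bases of Rfx5 and 33.8% of those of Rfxank.

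In the genome, Psmb9, Tap1, Psmb8 and Tap2 lie next to each other in the MHC on chromosome 17, within 34335 bases, and Tapbp lies on the same chromosome. Psmb9 and Tap1 are read in opposite directions, with 225 bases between their RefSeq starts, and by GENCODE their exons overlap in 5.79% of the Psmb9 and 3.87% of the Tap1 bases. Because 9 of the genes had the same directions of change, promoters were read from RefSeq (GRCm38.p6, 250 bases before to 50 after the start), where Psmb8, Psmb9, Psmb10, Psme1, Psme2, Tap1, Tapbp and B2m had 9 windows in all while Tap2 and Nlrc5 had no entry. They were searched on both strands for GAAANNGAA, part of the interferon-stimulated response element, and TTCNNNGAA, the gamma-activated site. The other patterns were GGGNNTTCC, a short form of the NF-kB motif, and CCAAT. GAAANNGAA was in 2 of the 9 windows (Psme1 and B2m) and in 8.56% of all 32851 windows, and TTCNNNGAA in 1 (Psmb8) and in 8.30%. GGGNNTTCC was in none and in 5.82% of all, and CCAAT was in 4 (Psmb9, Tap1, Tapbp and B2m) and in 37.4% of all. Other forms of the NF-kB motif were not searched, so the windows may hold NF-kB sites that this pattern misses. The Psmb9 and Tap1 windows overlap and share 1 CCAAT match. A match is only a run of letters, and no factor binding was measured. Shown 5′ to 3′ are the 250 bases before the start of B2m (+ strand, chr2:122147437-122147686), with GAAANNGAA in capitals, those before Psmb8 (+ strand, chr17:34197945-34198194), with TTCNNNGAA in capitals, and the stretch between Psmb9 and Tap1 (+ strand, chr17:34187331-34187555), with CCAAT in capitals.
B2m: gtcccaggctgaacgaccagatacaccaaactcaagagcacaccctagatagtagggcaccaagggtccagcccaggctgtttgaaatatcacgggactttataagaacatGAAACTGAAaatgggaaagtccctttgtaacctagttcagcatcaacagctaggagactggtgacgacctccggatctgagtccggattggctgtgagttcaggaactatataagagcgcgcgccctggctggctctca
Psmb8: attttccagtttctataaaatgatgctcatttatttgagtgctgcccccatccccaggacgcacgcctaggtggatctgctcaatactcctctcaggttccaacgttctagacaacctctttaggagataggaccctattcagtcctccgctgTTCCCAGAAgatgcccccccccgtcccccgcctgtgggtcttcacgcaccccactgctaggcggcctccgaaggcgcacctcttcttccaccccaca
Psmb9 and Tap1: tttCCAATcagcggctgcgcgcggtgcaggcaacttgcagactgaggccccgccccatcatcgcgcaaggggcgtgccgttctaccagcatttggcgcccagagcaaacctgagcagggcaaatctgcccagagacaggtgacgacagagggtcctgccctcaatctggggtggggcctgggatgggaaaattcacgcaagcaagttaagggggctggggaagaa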

How the data were processed

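Raw counts of reads on each of 46603 Ensembl genes, without normalization, were deposited by the authors for each sample. Their processing notes name GRCm38/mm10, TopHat2 2.1.0, HTSeq and DESeq2. The labels and the methods name different library kits, 1 of them stranded, so it is unknown whether strand was used, and antisense overlaps of over 5% of the exon bases are given for the members and for the listed genes whose values are printed. All 15 samples were used. In R 4.3.3, edgeR 4.0.16 kept 15997 genes (filterByExpr on the 5 conditions), scaled libraries by TMM and tested 9 comparisons with glmQLFit and glmQLFTest in 1 fit with no covariates. A gene was called when its p, adjusted by Benjamini-Hochberg over all genes tested, was under 0.05. The test gives no standard error. Those printed are the size of the log2 fold change divided by the square root of the test's F statistic. With 3 samples against 3, an exact test cannot go below 0.1, so p-values come from this model. The floor was set at 3 counts, and a gene that reached no more in any sample of a condition is at it, a rule for counting error only. Names, positions and exon lengths (all exons joined) are those of GENCODE M21, which named 46005 of the identifiers. The length of a gene's principal transcript was an alternative added after seeing the data.

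The members, the lists and the rule for the genes named (all members, any gene of the lists, and the 8 genes outside the lists most like the members' mean profile, on log2 CPM with a prior count of 2) were chosen with earlier results of these data known. Alternatives were DESeq2 1.42.0, a fit of only the groups compared, DESeq2's size factors, total counts alone, no filter, at least 10 counts in every sample, calls at 0.01, calls that also needed a 2-fold change, blocks of the same replicate number, and fits that each lacked 1 sample. The replicate numbers 1, 3 and 4 come from the sample titles, and neither labels nor methods say what they share. Deviations of same-numbered samples from their condition means correlated at 0.143, 0.228 and 0.360 in MEFD3plu/MEFD3min (all genes tested), so the numbers were taken as pairs there. The pairs entered only the alternative with blocks. Values at day 3 come from the fit with no covariates unless an alternative is named. The steps were tested on simulated data.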

Additional observations from a re-analysis of the deposited data

Results flagged for a closer look

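The effect of the treatment differed between day 3 and day 5 by the interaction term of the edgeR fit, the day 3 log2 fold change minus that of day 5, for each of the 10 antigen processing genes. The interaction was Psmb8 (-4.80), Psmb9 (-4.00), Psmb10 (-3.88), Psme1 (-3.17), Psme2 (-2.67), Tap1 (-3.76), Tap2 (-2.58), Tapbp (-3.57), B2m (-2.36) and Nlrc5 (-1.36), with adjusted p-values between 9.51e-12 and 5.9e-06. For Psmb8 to B2m the effects had opposite signs on both days, and for Nlrc5 the same sign. Over the alternatives the interaction of Psmb8 lay between -4.91 and -4.63 and that of Nlrc5 between -1.50 and -1.18.

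Genes named beside the 10 also differed between the days in the same test, with an interaction of H2-K1 (-2.05), H2-D1 (-1.20), H2-T23 (-4.49) and H2-Q7 (-2.16) among the heavy chains, Cd1d1 (-2.45), Fcgrt (-1.55), Erap1 (-2.28) and Tapbpl (-2.45) among partners and loading genes, and Irf1 (-2.10), Irf9 (-4.88) and Stat2 (-3.96) among regulators. Psme3 had an interaction above 0, at 1.36. The largest adjusted p among these genes was 2.53e-06 (edgeR).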

How the results depend on the processing

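Of 1905 log2 fold changes recomputed under the alternatives, 1876 kept their direction and their side of an adjusted p of 0.05. For the 10 genes all values did so at day 3, at day 5 and in the interaction, with day 5 values of B2m between 0.50 and 0.75 and of Nlrc5 between -0.60 and -0.40. With a change of at least 2-fold required, 9 of the 10 genes were called at day 3 and 7 at day 5, in place of 10 and 10, beside 23.8% and 15.3% of all genes, while 3 in place of 7 of the 10 genes were called in MEFD3plu/MEFD0 and 4 in place of 7 in MEFD5min/MEFD3min, beside 31.0% and 13.4%, which follows from the stricter rule. With each sample left out in turn, 6 of the 10 were called in MEFD3plu/MEFD0 at the least, 9 to 10 in MEFD3min/MEFD0 and MEFD5min/MEFD0, 7 to 8 in MEFD5min/MEFD3min, and 10 in the other comparisons. With all samples, 63.5% of all genes were called in MEFD3plu/MEFD0, 60% and 46.4% in MEFD3min/MEFD0 and MEFD5min/MEFD0, and 42.8% in MEFD5min/MEFD3min. In the other comparisons the share of all genes was 48.5% to 65%. With the replicate block, 10 of 10 were called at day 3, at day 5 and in the interaction, beside 9452, 8607 and 8305 of all 15997 genes, and the block changed the call of no member in any comparison. Outside MEFD3plu/MEFD3min, at least 1 pair of same-numbered samples correlated at or under 0.1, so the numbers were not taken as pairs there. This cutoff cannot show that pairing is absent, as the values in MEFD3min/MEFD0 were 0.084, 0.132 and 0.180.

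Signs turned for values that did not pass with all samples either. They were Tap1 in MEFD3plu/MEFD0 (-0.023 with total counts alone), Psmb8 in MEFD5min/MEFD3min (0.026 without MEFD5min replicate 3), H2-D1 at day 5 (-0.10 with total counts alone, -0.055 without MEFD5plu replicate 1), and at day 3 Cd1d1 (0.01 without MEFD3min replicate 4, 0.032 without MEFD3plu replicate 1) and Psmb6 (-0.12 without MEFD3min replicate 3, -0.08 without MEFD3plu replicate 4). Other fits kept the sign, with values as far out as -0.29 for Psmb8 without MEFD5min replicate 4, 0.12 for H2-D1 without MEFD5plu replicate 3 and -0.25 for Cd1d1 without MEFD3plu replicate 3. The cause was not tested. B2m passed in MEFD3plu/MEFD0 with total counts alone, at -0.27 (adjusted p = 0.0411, edgeR). Psmb6 passed at day 5 with only the groups compared, with no filter and with the replicate block, at 0.28, 0.28 and 0.29. Scaling by total counts alone moved the median of all genes by -0.16 at day 5 and by 0.18 in the interaction (log2). Without division by length the share of Psmb8 in its pair was 22.6% in MEFD5plu and that of Psmb10 34.6%. Psmb8 in MEFD0 rested on 18, 26 and 14 counts and Psmb9 on 26, 28 and 45, so these low values are less certain. The limits are 3 samples per condition that may not be separate cultures, RNA of whole cultures without protein or surface levels, an unknown strand setting where antisense genes overlap, and a reference genome of another mouse strain for the polymorphic heavy chains.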

Other observations

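Counts of the interferon genes themselves were near the floor. None of 10 listed interferon genes passed the filter on low counts, and 6 of them, Ifna1, Ifna5, Ifnk, Ifng, Ifnl2 and Ifnl3, had at most 3 counts in each of the 15 samples. The low counts are uncertain for some of these. Of the 50-base stretches of Ifna1, Ifna5, Ifnl2 and Ifnl3, 67.4%, 52.2%, 31.7% and 38.8% occur in other genes too. Gm49751 overlaps 25.95% of the exon bases of Ifng on the same strand, while Ifnk shares no such stretch. Ifnb1 had 0, 0 and 1 counts in MEFD0, 1, 4 and 1 in MEFD3min, 0, 0 and 0 in MEFD3plu, 5, 1 and 6 in MEFD5min and 8, 13 and 19 in MEFD5plu. Ifna4 had 0, 0 and 0, 2, 1 and 2, 0, 0 and 0, 2, 0 and 3 and 11, 19 and 10 counts in the same order. The 3 MEFD5plu samples held the highest counts of Ifnb1 and Ifna4, and the MEFD3plu samples had none. Ifne went another way, with 5, 1 and 5 counts in MEFD5min, 1, 1 and 3 in MEFD5plu and 0, 0 and 2 in MEFD3plu. Ifna2 had 1, 0 and 0 counts in MEFD5min and 5, 0 and 0 in MEFD5plu. No test was made on counts this low. Of 5 listed receptor genes 4 passed the filter, and 3 of them were lower and 1 higher at day 3 (28.0% and 28.0% of all genes). At day 5, 1 was lower and 1 higher (24.2% and 26.3%). With total counts alone 2 were lower and 1 higher on each of the days. Beside them, 4379 of all 15997 genes were lower and 4555 higher at day 3, and 5231 lower and 3072 higher at day 5. Ifngr1 rose by 1.81 (standard error 0.0848, adjusted p = 1.08e-11) at day 3 and 1.16 (standard error 0.0838, adjusted p = 7.27e-09) at day 5, while its partner chain Ifngr2 fell by 0.37 at day 3 and 0.26 at day 5 (adjusted p = 0.00155 and 0.0215, edgeR). At day 3 Ifnar1 and Ifnar2 fell by 0.16 and 0.79 (adjusted p = 0.0403 and 2.93e-07, edgeR).

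The MHC class II pathway, which presents peptides to CD4 T cells in professional antigen presenting cells, was low throughout. Of 8 listed genes 4 passed the filter, of which 1 was higher and 2 lower at day 3 (28.0% and 28.0% of all genes) and 1 higher and 1 lower at day 5 (26.3% and 24.2%). With total counts alone, 0 were higher and 2 lower at day 5, beside 3072 and 5231 of all 15997 genes. The summed level of the 8 was 3.91 ± 0.827 CPM in MEFD0, 9.39 ± 0.259 and 8.98 ± 0.846 CPM (mean ± SD, n = 3) in MEFD3min and MEFD3plu, and 9.21 ± 1.32 and 7.65 ± 1.38 CPM in MEFD5min and MEFD5plu. At day 3 this sum joined opposite changes, as H2-DMa rose by 1.39 (standard error 0.210, adjusted p = 2.32e-05) and H2-DMb1 fell by 1.73 (adjusted p = 1.3e-06, edgeR). Brd2 lies antisense to 10.4% of the exon bases of H2-DMa. Cd74, the invariant chain, had at most 9 counts in a sample. Of 6 cytosolic peptidases, 4 were higher and 1 lower at day 3, and 1 was higher and 3 lower at day 5, with medians of 0.27 and -0.11 (log2, edgeR), beside 28.0% higher and 28.0% lower at day 3 and 26.3% and 24.2% at day 5 over all genes. With the other 2 scalings none of the 6 was higher at day 5. Of all 15997 genes, 3836 were higher with DESeq2's size factors and 3072 with total counts alone. Thop1, which destroys class I peptides in the cytosol, had 31.0, 33.2 and 33.3 CPM in MEFD3min and 52.4, 50.3 and 52.1 in MEFD3plu, and 44.2, 56.0 and 41.4 in MEFD5min and 30.1, 29.5 and 28.1 in MEFD5plu. Its log2 fold change was 0.67 (standard error 0.0954, adjusted p = 1.32e-05) at day 3 and -0.69 (standard error 0.0958, adjusted p = 1.55e-05) at day 5 (edgeR), so it was higher and then lower in treated cells. Of 7 genes of proteasome assembly and other activators, 5 were higher at day 3 (28.0% of all genes) and 4 at day 5 (26.3%). With total counts alone 2 were higher and 2 lower at day 5, beside 3072 and 5231 of all 15997 genes.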
